A study of Mus musculus with 8 samples.

Results

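The protocadherins, a family of cadherin-like adhesion proteins, were examined in RNA-seq of lung cells sorted by protease activity. Members were all rows of the raw count table whose mouse gene symbol begins with Pcdh, which gave 70 of 27179 genes. They comprised 14 alpha, 22 beta and 22 gamma genes of the clustered locus and 12 non-clustered genes. The family was selected on earlier results of this same contrast, in which Pcdhb16 was among the genes that rose most, although members entered by symbol whichever way they moved. The values of the members are therefore a description, set beside the same values over all genes where those were read.

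The cells came from mice labelled C57BL/6 (female C57BL/6J in the study's methods), whose lung tumors arose from a fusion of Eml4 to Alk, made by adenoviral delivery of Cas9 with guide RNAs to the lung. At 18 to 22 weeks of age, 11 to 12 weeks after induction, the mice received 4.5 nmol of QZ1-(PEG2K), a quenched Cy5 probe that is unmasked when proteases cleave its linker, and 2 h later the lungs were removed. After gating on live, CD45-negative and CD11b-negative cells, sorting gave a QZ1-hi and a QZ1-lo population of about 100000 cells each, whose purity was not assessed, giving 4 libraries per population. Both populations came from tumor-bearing lungs exposed to the probe, and no library without probe entered the comparison, which asks which genes differ between cells with high and low probe signal.

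Protocadherins carry extracellular cadherin repeats, through which many of them bind their own kind across cell contacts. Each clustered gene has its own promoter. The alpha and the gamma genes splice their own variable exons to constant exons common to their cluster, whereas beta genes have no constant exons. In neurons a cell switches on a small choice of these promoters, which serves self-recognition and self-avoidance. Non-clustered members are single genes, grouped as delta1 and delta2 by the conserved motifs of their cytoplasmic tails, with a few outside both groups. They are best known from the nervous system, but some, such as Pcdh12 in endothelium and Pcdh1 in airway epithelium, are typical of other tissues.

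Total counts per library were 18380918 to 26847938, of which 34.0% to 65.6% came from mitochondrial and ribosomal RNA genes. Levels are given in CPM, which sets the counts of a gene against the size of its library, scaled by the trimmed mean of M-values (TMM) method over tested genes, and 3 counts corresponded to 0.0894 to 0.179 CPM. Beside the members, 11 lists of cell type markers were read. All 8 endothelial markers were higher in QZ1-hi (summed 917.9 to 2165 CPM against 65.9 to 288 CPM in QZ1-lo), as were 6 of 7 fibroblast markers (1574 to 3042 against 38.8 to 354 CPM) and 2 of 7 pericyte markers (45.0 to 71.4 against 10.4 to 27.1 CPM). Of 8 neural and Schwann cell markers 2 could be tested and 0 were called, with summed levels of 3.22 to 4.50 CPM in QZ1-hi and 2.08 to 4.22 CPM in QZ1-lo, and Cdh19 and Elavl4 were at 0. Ptprc, which encodes the CD45 that the gate was set to remove, was at 131 ± 64.2 and 125 ± 30.0 CPM (SD, n = 4) in QZ1-hi and QZ1-lo. In bulk samples such as these, fewer cells of a type and less RNA per cell cannot be told apart.

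Of the 70 protocadherins, 60 had at least 1 count in some library, and the 10 with none were all alpha genes. Among these 60 the mean level was higher in QZ1-hi for 55 and lower for 5. The share of all genes with a higher mean was not read. After the filter on low counts 42 members remained for testing, of which 13 were called higher in QZ1-hi with an adjusted p below 0.05 (edgeR quasi-likelihood test, Benjamini-Hochberg over 15583 genes) and 0 lower. The 13 include Pcdhb16, which led to the family, and Pcdhb9 and Pcdhb19. These 3 passed the filter through QZ1-hi libraries alone and so had to differ, which leaves 10. Of the 10, Pcdhb20, Pcdh18 and Pcdh19 reached the filter level in all 4 QZ1-hi libraries but only in 1, 2 and 2 QZ1-lo libraries. For these genes the filter favoured the direction, and their calls add no separate support. The rest reached that level in all 4 libraries of both populations. Over all tested genes, 9.88% were called higher and 8.21% lower. At an unadjusted p under 0.05, 19 members were higher and 0 lower, against 15.4% and 13.5% of all genes, and DESeq2 and limma-voom also called 0 lower. With no filter on low counts, 15 of the 60 members with a count were called higher, against 7.31% of genes. All 4 QZ1-hi libraries lay above all 4 QZ1-lo libraries for 23 of the 60, against 9.21% of the 21271 genes with a count. For 0 members was the order the opposite, and the share of all genes in that opposite order was not read. Because earlier results of this contrast led to the family, nothing is read from these counts against their background.

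By group, summed non-clustered levels were 204, 141, 218 and 118 CPM in the QZ1-hi libraries and 34.7, 28.8, 48.7 and 24.3 CPM in the QZ1-lo libraries, a ratio of means of 5.00. Summed beta levels were 22.7, 18.4, 31.3 and 16.0 CPM against 2.74, 4.15, 6.88 and 1.72 CPM, a ratio of 5.70. Summed gamma levels were 150, 122, 152 and 110 CPM against 68.6, 63.9, 76.4 and 63.1 CPM, a ratio of 1.97. In these 3 groups the populations did not overlap. Alpha levels were low, at 1.86, 3.51, 2.26 and 1.85 CPM against 0, 0.244, 2.46 and 0 CPM, and here QZ1-lo library 3 lay within the QZ1-hi range.

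**Figure D1:**
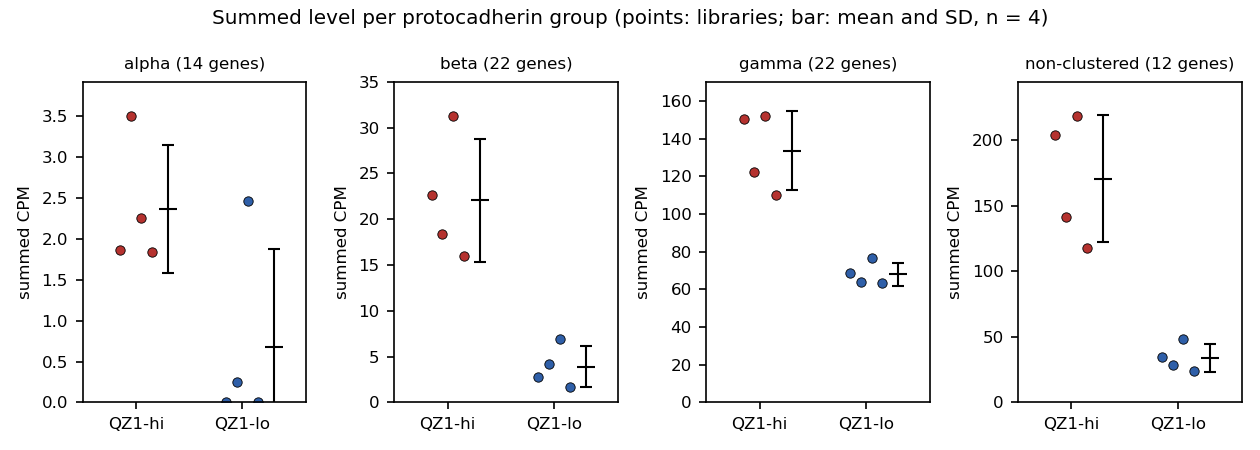
Summed CPM of the alpha, beta, gamma and non-clustered protocadherins, with one point per library and the mean and SD of each population (n = 4, vertical axes from 0, alpha bar cut off at 0). The QZ1-hi points of the beta group (16.0 to 31.3 CPM), gamma group (110 to 152 CPM) and non-clustered group (118 to 218 CPM) lie above all QZ1-lo points, whereas alpha overlaps through QZ1-lo library 3 at 2.46 CPM.

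Of the 12 non-clustered genes 9 were tested and 6 were called higher in QZ1-hi, beside 9.88% of all tested genes. The 6 were Pcdh1 and Pcdh7 (delta1), Pcdh17, Pcdh18 and Pcdh19 (delta2) and Pcdh12, which belongs to neither group. Delta2 protocadherins bind the WAVE actin regulatory complex through their cytoplasmic tails. In the RefSeq promoter table (build GRCm38.p6), 180 bases directly before the annotated gene are shown for the delta2 members that were higher in QZ1-hi and for Pcdh10, the delta2 member whose mean was not higher. Capitals mark the GC box (GGGCGG) and the CCAAT box (CCAAT), each searched on both strands. Pcdh17 was read at chr14:84443383-84443562 (plus strand), Pcdh18 at chr3:49757384-49757563 (minus strand), Pcdh19 at chrX:133689045-133689224 (minus strand) and Pcdh10 at chr3:45378218-45378397 (plus strand).
Pcdh17: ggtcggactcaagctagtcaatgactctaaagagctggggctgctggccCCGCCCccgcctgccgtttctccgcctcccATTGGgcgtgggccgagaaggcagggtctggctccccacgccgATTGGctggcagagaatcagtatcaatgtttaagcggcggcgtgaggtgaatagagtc
Pcdh18: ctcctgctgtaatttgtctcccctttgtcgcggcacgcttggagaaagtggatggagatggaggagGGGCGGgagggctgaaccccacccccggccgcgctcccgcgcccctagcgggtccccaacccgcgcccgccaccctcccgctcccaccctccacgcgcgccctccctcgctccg
Pcdh19: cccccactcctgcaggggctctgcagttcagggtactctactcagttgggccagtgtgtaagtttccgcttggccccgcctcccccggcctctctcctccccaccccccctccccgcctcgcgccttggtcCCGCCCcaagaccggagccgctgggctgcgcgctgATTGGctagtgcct
Pcdh10: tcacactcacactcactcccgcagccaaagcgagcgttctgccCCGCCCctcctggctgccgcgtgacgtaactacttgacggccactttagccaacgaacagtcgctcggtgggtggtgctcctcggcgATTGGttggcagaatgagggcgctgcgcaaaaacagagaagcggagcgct
All 4 windows contained 1 GC box. Pcdh17 contained 2 CCAAT boxes, Pcdh19 and Pcdh10 contained 1 each and Pcdh18 contained 0. In windows of 250 bases before the start, a GC box occurred in 32.7% and a CCAAT box in 33.9% of 32851 promoters. Over 250 bases Pcdh18 also contained 1 CCAAT box, and the other counts did not change. The 250-base windows of Pcdh18 and Pcdh19 include 67 and 51 bases inside the annotated gene. GC content over 250 bases was 64.8%, 68.0%, 69.2% and 63.2% for Pcdh17, Pcdh18, Pcdh19 and Pcdh10, against a median of 52.4%. On these letters Pcdh10 did not differ from Pcdh19.

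Pcdh17 (chromosome 14, 84443563 to 84537565), a delta2 protocadherin known from axon extension and synapse assembly, was at 54.0, 29.7, 50.5 and 28.4 CPM in QZ1-hi and at 3.46, 2.16, 7.06 and 2.58 CPM in QZ1-lo. The lowest QZ1-hi library was well above the highest QZ1-lo library. Its log2 fold change was 3.41 (SE 0.38, edgeR adjusted p = 0.000278). Pcdh18 (chromosome 3, 49743291 to 49757383), which binds the adaptor Dab1, was at 5.04, 6.17, 8.09 and 3.87 CPM against 0.0596, 0.407, 1.41 and 0.900 CPM. These levels did not overlap, although QZ1-lo library 1 held only 2 counts, and the log2 fold change was 3.06 (SE 0.67, edgeR adjusted p = 0.0082). Pcdh19 (chromosome X, 133582860 to 133689044), mutated in an X-linked epilepsy, was at 1.99, 3.46, 6.88 and 2.68 CPM against 0.149, 0.814, 0.434 and 0.368 CPM. All QZ1-hi libraries again exceeded all QZ1-lo libraries, with a log2 fold change of 3.09 (SE 0.61, edgeR adjusted p = 0.0050). Pcdh18 and Pcdh19 each reached the filter level in all 4 QZ1-hi but only 2 QZ1-lo libraries, so the filter favoured their direction.

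The other delta2 genes were scarce. Pcdh8, an activity-regulated protocadherin of neurons, had 10, 4, 0 and 2 counts in QZ1-hi and 0 in all QZ1-lo libraries. Pcdh10, which recruits the WAVE complex to cell contacts, had 2, 11, 0 and 7 counts against 6, 0, 54 and 0. Most of its QZ1-lo counts came from library 3, and neither gene passed the filter on low counts.

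Among delta1 genes, Pcdh1 and Pcdh7 held most of the counts. Pcdh1 (chromosome 18, 38185914 to 38212048), an adhesion protein of airway epithelium linked to asthma, was at 82.2, 54.7, 97.1 and 47.1 CPM in QZ1-hi and at 22.7, 18.3, 31.1 and 17.8 CPM in QZ1-lo. It was the only non-clustered member above 10 CPM in every QZ1-lo library, and it rose with a log2 fold change of 1.64 (SE 0.25, edgeR adjusted p = 0.00119). Pcdh7 (chromosome 5, 57716145 to 58133236), also known as NF-protocadherin, was at 33.4, 20.6, 16.7 and 15.4 CPM against 5.10, 2.24, 2.35 and 0.696 CPM. The groups did not overlap, and the log2 fold change was 3.04 (SE 0.48, edgeR adjusted p = 0.00137). Genes annotated on the opposite strand cover 21.1% of the Pcdh7 exon bases, and the strand setting used in counting is not given in the sources used here. Pcdh9 was at 0.254 to 2.26 CPM against 0 to 1.23 CPM, and its log2 fold change of 1.18 did not pass (edgeR adjusted p = 0.494). Pcdh11x, which was not tested, had 2, 13, 5 and 11 counts against 0 in all QZ1-lo libraries, at least 14.6-fold higher when QZ1-lo was set to 3 counts over the group.

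Pcdh12 (chromosome 18, 38267092 to 38284401), a protocadherin of endothelial cell junctions, was at 24.7, 8.25, 33.7 and 12.7 CPM in QZ1-hi and at 1.40, 2.16, 4.34 and 0.614 CPM in QZ1-lo. The QZ1-hi libraries spread widely, but none reached the QZ1-lo range. The log2 fold change was 3.22 (SE 0.57, edgeR adjusted p = 0.00272). Pcdh15, a tip-link protein of inner ear hair cells, was at 1.44, 14.7, 2.83 and 3.22 CPM against 1.01, 1.79, 0 and 0.0819 CPM. QZ1-hi library 2 held most of its counts, QZ1-hi library 1 lay within the QZ1-lo range, and the log2 fold change of 2.93 did not pass (SE 1.06, edgeR adjusted p = 0.0840). QZ1-hi library 2 was also the highest library for the mesothelial markers Msln (55.2 CPM), Upk3b (125.6 CPM), Wt1 (27.3 CPM) and Lrrn4 (60.0 CPM), whose highest levels in the other libraries were 21.2, 26.4, 8.10 and 15.1 CPM. Of the 5 mesothelial markers 4 were higher and Krt19 lower in QZ1-hi, the summed list was at 135.8 to 453 CPM against 255.7 to 352.5 CPM, and its part in the Pcdh15 level was not tested. Pcdh20 was at 0.297 to 1.21 CPM against 0 to 0.488 CPM, with a log2 fold change of 2.71 that did not pass (edgeR adjusted p = 0.191).

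**Figure D2:**
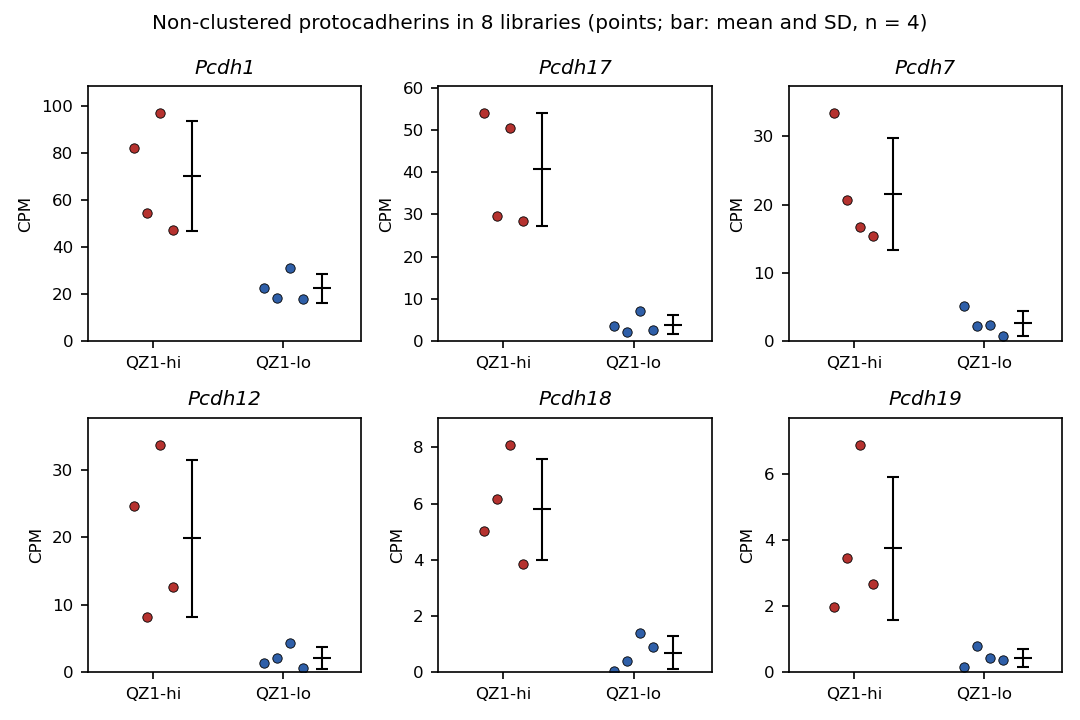
CPM of the 6 non-clustered protocadherins called higher in QZ1-hi, one panel per gene, with one point per library and the mean and SD of each population (n = 4, linear axes from 0). No QZ1-lo point reaches a QZ1-hi point in any panel, and Pcdh1 has the highest QZ1-lo level of the 6, at 17.8 to 31.1 CPM.

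Set per kilobase of exon not shared with other protocadherin genes (GENCODE M21), Pcdh1 had the highest non-clustered level, at 7.99 CPM per kb in QZ1-hi and 2.56 CPM per kb in QZ1-lo. Pcdh12 and Pcdh17 followed in QZ1-hi, at 3.28 and 3.13 CPM per kb, and stood at 0.351 and 0.294 CPM per kb in QZ1-lo. Their SDs in QZ1-hi, 1.91 and 1.04 CPM per kb (n = 4), exceeded the distance between them. Pcdh7 was at 2.03 and 0.245 CPM per kb, and Pcdh18, Pcdh19, Pcdh15, Pcdh9, Pcdh20, Pcdh8, Pcdh11x and Pcdh10 were all at or below 1.08 CPM per kb in QZ1-hi.

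Because endothelial and fibroblast markers moved with the same contrast, the non-clustered levels were also set against the summed marker levels of the same library, a measure free of library scaling that was chosen after the values had been seen. Per 1000 CPM of the 8 endothelial markers, Pcdh12 was at 13.3 ± 3.15 CPM in QZ1-hi and 14.3 ± 3.48 CPM in QZ1-lo (SD, n = 4), a ratio of 0.926. Pcdh17 was at 29.6 ± 4.25 and 29.9 ± 10.8 CPM, a ratio of 0.990. For both genes the ranges of the populations overlapped and the difference was smaller than either SD. Pcdh7, Pcdh18 and Pcdh19 had ratios of 0.710, 0.779 and 0.716 on the same measure, each with overlapping ranges. Pcdh1 was at 51.0 ± 5.25 CPM per 1000 CPM in QZ1-hi against 195 ± 79.7 in QZ1-lo, and here the 4 QZ1-lo libraries (108 to 270) all lay above the QZ1-hi libraries (44.8 to 57.6). Per 1000 CPM of the 7 fibroblast markers, the ratios of QZ1-hi to QZ1-lo were 0.821 for Pcdh12, 0.654 for Pcdh17, 0.613 for Pcdh7, 0.359 for Pcdh18, 0.449 for Pcdh19 and 0.169 for Pcdh1. The ranges of the populations overlapped for all but Pcdh1 (19.5 to 49.6 against 53.9 to 459). In QZ1-lo, Pcdh18 was at 7.22 ± 10.8 and Pcdh19 at 3.57 ± 4.00 (SD, n = 4). Their highest QZ1-lo values, 23.2 and 9.51, came from library 4, where the fibroblast markers summed to only 38.8 CPM. The part of either cell class in these levels was not tested.

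**Figure D3:**
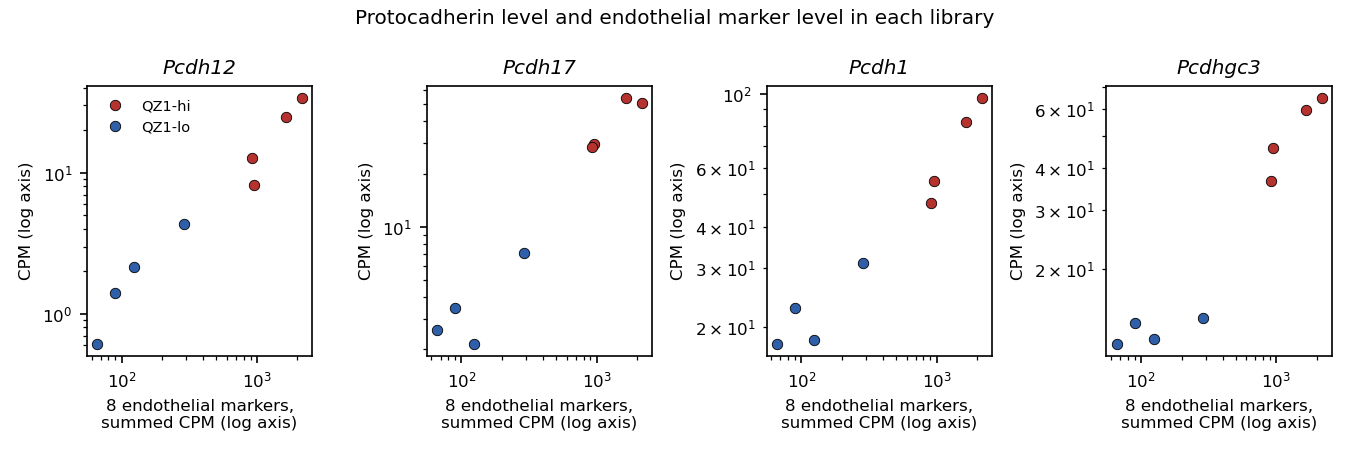
CPM of Pcdh12, Pcdh17, Pcdh1 and Pcdhgc3 (vertical, log axis) against the summed CPM of 8 endothelial markers (horizontal, log axis), one point per library, with 4 QZ1-hi and 4 QZ1-lo libraries. The axes differ in span from panel to panel, with Pcdh12 running from 0.614 to 33.7 CPM and Pcdhgc3 only from 12.0 to 64.6 CPM over the same marker range of 65.9 to 2165 CPM.

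Beta protocadherins (chromosome 18, from Pcdhb1 at 37264998 to Pcdhb22, which ends at 37521419) were low in both populations and nearly silent in QZ1-lo. Counts were seen for 21, 20, 21 and 19 of the 22 genes in the QZ1-hi libraries and for 13, 12, 11 and 9 in the QZ1-lo libraries. At the size of the smallest TMM-scaled library the expected numbers were 19.0 to 21 against 8.30 to 11.6. Counts outside mitochondrial and ribosomal RNA genes were 8749446 to 12115739 in QZ1-hi and 11870612 to 16389316 in QZ1-lo, so QZ1-lo was not the shallower population on that measure. Mean levels were higher in QZ1-hi for 20 of the 22 genes. For 10 all QZ1-hi libraries lay above all QZ1-lo libraries, as they did for 9.21% of all genes with a count. Only 10 genes passed the filter on low counts, and 4 were called, beside 9.88% of all tested genes. Of the 4, 3 (Pcdhb9, Pcdhb16 and Pcdhb19) had passed through QZ1-hi libraries alone. Pcdhb20, the other gene called, reached the filter level in only 1 QZ1-lo library. Without the filter 5 of the 22 were called, Pcdhb5 being added, beside 7.31% of all genes.

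Pcdhb16 (chromosome 18, 37477768 to 37483038) had 51, 38, 36 and 55 counts in QZ1-hi and 0, 0, 0 and 1 in QZ1-lo. The ratio of scaled sums was 254.5, with an exact 95% counting interval of 45.1 to 10110 that covers counting error only. This gene was the member already known from earlier results, so its p is not given, and it adds nothing to the counts of calls that contain it. Pcdhb9 was at 1.40, 0.988, 2.08 and 1.01 CPM against 0.0298, 0.122, 0 and 0 CPM. Pcdhb19 was at 2.12, 1.24, 0.636 and 1.79 CPM against 0.0298, 0.203, 0 and 0 CPM. Both were at or near 0 in every QZ1-lo library, and since the filter fixed their direction no test is given. Pcdhb20 was at 1.52, 1.48, 2.20 and 1.43 CPM against 0.447, 0.122, 0.145 and 0.0409 CPM. Its log2 fold change was 3.06 (SE 0.74, edgeR adjusted p = 0.0139), and without QZ1-hi library 3 its adjusted p (edgeR) was 0.0504. Only 1 QZ1-lo library reached the filter level for Pcdhb20, against all 4 QZ1-hi libraries. The filter thus favoured its direction, and its p adds no separate support. Pcdhb17, the beta gene with the highest mean in QZ1-hi, was at 3.01, 3.21, 3.18 and 0.954 CPM against 0.596, 1.06, 0.0362 and 0.246 CPM. QZ1-hi library 4 lay below QZ1-lo library 2, and the log2 fold change of 2.41 did not pass (edgeR adjusted p = 0.0580).

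Of the other tested beta genes, Pcdhb11, Pcdhb14, Pcdhb15, Pcdhb18 and Pcdhb22 had log2 fold changes of 1.45 to 2.57 and edgeR adjusted p from 0.203 to 0.458. Pcdhb11 did not overlap between populations, at 0.466 to 1.04 CPM against 0 to 0.362 CPM. Pcdhb14 and Pcdhb22 reached 1.81 and 2.24 CPM in QZ1-lo library 3, inside their QZ1-hi ranges of 0.988 to 2.31 and 0.715 to 3.52 CPM. Pcdhb15 was at 0 to 0.954 CPM against 0 to 0.610 CPM, and Pcdhb18 at 0.596 to 3.35 CPM against 0 to 0.814 CPM. The 12 untested beta genes were mostly of this kind but fainter. Among them Pcdhb21 held the most counts, at 16, 32, 51 and 7 against 2, 7, 0 and 5, and Pcdhb4, Pcdhb5, Pcdhb6 and Pcdhb12 also did not overlap. Pcdhb6 and Pcdhb10 were at 0 in QZ1-lo and had 1, 1, 15 and 2 and 3, 0, 6 and 4 counts in QZ1-hi, so that most Pcdhb6 counts came from library 3. Only Pcdhb1 (12 counts in QZ1-hi, 29 in QZ1-lo) and Pcdhb2 (10 and 13 counts) had a lower mean in QZ1-hi, and Pcdhb3, Pcdhb7, Pcdhb8 and Pcdhb13 overlapped. The gene with the most beta counts was Pcdhb22, Pcdhb17, Pcdhb18 and Pcdhb16 in the 4 QZ1-hi libraries, with 10.7% to 20.5% of beta counts, and Pcdhb17, Pcdhb17, Pcdhb22 and Pcdhb1 in the 4 QZ1-lo libraries, with 21.7% to 32.6%. Other protocadherins share at most 12.0% of the 50-base stretches of any beta gene, counting exact matches only. How reads from nearly equal stretches were assigned is not given in the sources used here. Genes on the opposite strand cover 63.5% of Pcdhb12.

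All 22 gamma genes (chromosome 18, from Pcdhga1 at 37661775 to Pcdhgc5, which ends at 37841873) had counts in every library and were tested. The C-type gene Pcdhgc3 stood apart. Pcdhgc3 (chromosome 18, 37806410 to 37841873), a widely expressed protocadherin known to restrain Wnt signaling through Axin1, was at 59.5, 46.0, 64.6 and 36.6 CPM in QZ1-hi and at 13.8, 12.4, 14.3 and 12.0 CPM in QZ1-lo. The QZ1-lo libraries hardly differed from each other and all lay far below the QZ1-hi libraries, with a log2 fold change of 1.98 (SE 0.18, edgeR adjusted p = 0.000203). Pcdhgb2 was at 7.33, 7.41, 11.8 and 7.57 CPM against 2.71, 2.77, 5.21 and 4.46 CPM, with a log2 fold change of 1.17 (SE 0.30, edgeR adjusted p = 0.0180). This call was lost without QZ1-hi library 3, QZ1-lo library 1 or QZ1-lo library 2, where the edgeR adjusted p was 0.0664, 0.0505 and 0.0511. Pcdhgb4 was at 5.04, 5.48, 3.53 and 6.02 CPM against 2.09, 1.95, 2.32 and 2.21 CPM, with a log2 fold change of 1.23 (SE 0.29, edgeR adjusted p = 0.0136). Under scaling by library totals alone neither gene was called, with log2 fold changes of 0.71 for Pcdhgb2 (edgeR adjusted p = 0.177) and 0.73 for Pcdhgb4 (edgeR adjusted p = 0.213).

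The remaining 19 gamma genes did not pass. Pcdhgc4, the isoform known for neuronal survival, was at 2.80, 1.48, 2.83 and 1.31 CPM against 0.238, 0.529, 0.253 and 1.47 CPM, and its log2 fold change was 1.76 (SE 0.69, edgeR adjusted p = 0.109). Pcdhgc5 was at 1.61 to 4.32 CPM against 1.02 to 1.47 CPM, and its log2 fold change was 1.33 (edgeR adjusted p = 0.0579). Pcdhgc5, Pcdhgb1 and Pcdhga8 did not overlap between populations, which makes 6 gamma genes with the 3 called. Over all genes, 9.21% of those with a count lay wholly higher in QZ1-hi, and 9.88% of those tested were called higher. Pcdhga12, Pcdhga4, Pcdhga6, Pcdhgb1, Pcdhgb5, Pcdhgb8 and Pcdhga8 had log2 fold changes of 0.76 to 1.16, and Pcdhgb6, Pcdhga10, Pcdhga9, Pcdhga2, Pcdhga5, Pcdhgb7, Pcdhga7 and Pcdhga3 of 0.07 to 0.53. Pcdhga1 and Pcdhga11 had negative values, -0.46 and -0.13. Among the gamma genes other than Pcdhgc3, Pcdhgb6 had the highest level in both populations, at 7.63 to 11.9 CPM against 5.90 to 11.8 CPM, and here the libraries were interspersed (log2 fold change 0.28, edgeR adjusted p = 0.547).

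The median log2 fold change of the 22 gamma genes was 0.77, against 0.02 for all tested genes, with 20 positive and 2 negative. When libraries were scaled by their totals alone, the median of all genes was -0.44, 882 genes were called higher and 2509 lower in place of 1540 and 1280, and the gamma median was 0.33 with 12 positive and 10 negative. The direction of the weaker gamma genes therefore rests on the scaling, whereas Pcdhgc3 was called under both. Per kilobase of its own exon, Pcdhgc3 was at 15.3 CPM per kb in QZ1-hi and 3.88 CPM per kb in QZ1-lo, the highest of all protocadherins in both. Pcdhgb6 was at 3.77 and 3.10 CPM per kb and Pcdhgb2 at 3.09 and 1.37 CPM per kb.

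**Figure D4:**
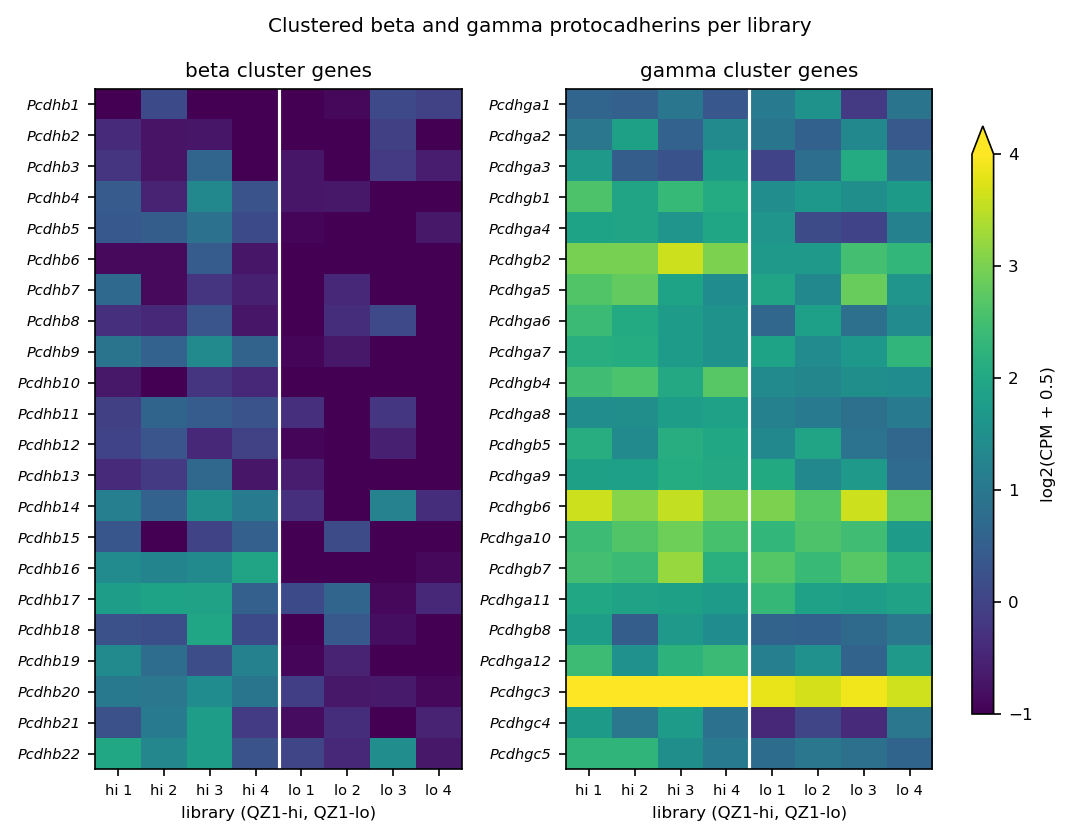
Level of each beta gene (left) and gamma gene (right) in the 4 QZ1-hi and 4 QZ1-lo libraries, coloured by log2(CPM + 0.5), with genes in the order of the locus and colours ending at 4, above which Pcdhgc3 lies in several libraries. Beta genes are dark in most QZ1-lo tiles, gamma genes are seen in all 8 libraries, and Pcdhgc3 is the brightest row in all libraries.

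Ratios within a library do not depend on scaling. Beta counts over gamma counts were 0.151, 0.150, 0.206 and 0.145 in QZ1-hi and 0.0400, 0.0649, 0.0901 and 0.0272 in QZ1-lo, without overlap. The share of Pcdhgc3 in gamma counts was 39.6%, 37.6%, 42.5% and 33.3% in QZ1-hi and 20.1%, 19.4%, 18.7% and 19.0% in QZ1-lo. Each QZ1-hi library thus held a larger share of Pcdhgc3 than any QZ1-lo library, with means of 38.3% ± 3.87 and 19.3% ± 0.606 (SD, n = 4). With Pcdhgc3 left out, beta over gamma was 0.267 ± 0.0624 against 0.0688 ± 0.0341. Set against the endothelial markers, Pcdhgc3 was at 38.6 ± 7.77 CPM per 1000 CPM in QZ1-hi and 121 ± 58.9 in QZ1-lo, and the beta genes summed to 16.2 ± 2.59 and 28.5 ± 4.30. On this measure both lay lower in QZ1-hi without overlap (29.86 to 48.45 against 49.58 to 182, and 13.78 to 19.34 against 23.85 to 33.33). Per fibroblast markers, the ratios of QZ1-hi to QZ1-lo were 0.197 for Pcdhgc3 and 0.420 for beta, and only the beta ranges overlapped. The part of either cell class was not tested.

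**Figure D5:**
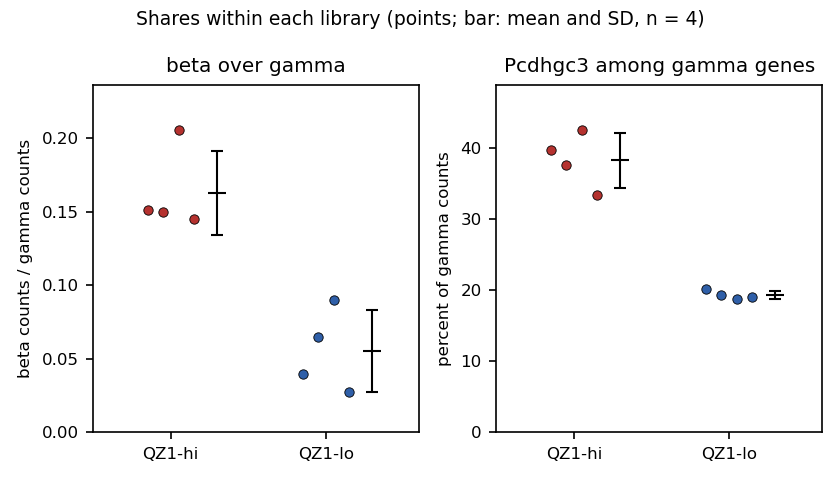
Beta counts over gamma counts (left) and the percent of gamma counts from Pcdhgc3 (right), with one point per library and the mean and SD of each population (n = 4, vertical axes from 0). QZ1-hi points lie at 0.145 to 0.206 and 33.3% to 42.5%, above QZ1-lo points at 0.0272 to 0.0901 and 18.7% to 20.1%.

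Gamma genes share 27.8% to 66.8% of their exon bases with another protocadherin gene through the constant exons, and how such reads were assigned is not given in the sources used here. The gamma gene with the fewest counts held 25, 18, 12 and 13 counts in the QZ1-hi libraries and 8, 13, 7 and 20 in the QZ1-lo libraries. Reads credited to every gamma gene at once can therefore be no more than these. Genes on the opposite strand cover 55.2% of Pcdhga10, 29.0% of Pcdhga11 and 28.4% of Pcdhgc3.

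Alpha genes (chromosome 18, from Pcdha1 at 36930285 to Pcdhac2, which ends at 37187663) were close to absent. Pcdhac2, whose promoter is regulated apart from the alternate alpha genes, had 32, 64, 39 and 31 counts in QZ1-hi and 0, 6, 68 and 0 in QZ1-lo. QZ1-lo library 3 was the highest of all 8 libraries in counts, and the log2 fold change of 1.66 did not pass (SE 1.21, edgeR adjusted p = 0.419). Without that library the adjusted p (edgeR) was 0.0165. The same library was the highest QZ1-lo library for the summed endothelial (288 CPM) and fibroblast (354 CPM) markers and held most QZ1-lo counts of Pcdh10, and the part of other cells was not tested. Pcdhac1 had 4, 7, 0 and 0 counts against 0, and Pcdha1 and Pcdha12 had 4 counts each, in QZ1-hi library 1 only. The other 10 alpha genes were at 0 in all 8 libraries. Since at least 10 alpha genes were at 0 in every library, reads from the constant alpha exons were not credited to each alpha gene.

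Genes that act on or with protocadherins were read from a list of 27, of which 26 were tested, 3 were higher in QZ1-hi and 0 lower, beside 9.88% and 8.21% of all genes, with a median log2 fold change of 0.12 against 0.02 over all genes. At an unadjusted p under 0.05, 7 were higher and 2 lower, beside 15.4% and 13.5% of all genes. DESeq2 called 2 lower and limma-voom 1, where 10.3% and 8.27% of all genes were lower. CTCF and the cohesin complex, which loop the distal enhancers to the chosen promoters, gave 0 of 8 called (edgeR), with 2 higher at an unadjusted p under 0.05. Ctcf was at 35.0 to 43.1 CPM in QZ1-hi and 39.8 to 43.1 CPM in QZ1-lo, and Rad21 at 113 ± 3.16 and 118 ± 10.9 CPM (SD, n = 4). The silencing factors Smchd1, Dnmt3b, Setdb1 and Trim28, which act on promoters of the clustered genes, gave 0 of 4, and Smchd1 was at 45.1 ± 8.80 and 44.7 ± 4.45 CPM. Adam10, a protease that cleaves protocadherins, was at 90.6, 85.7, 87.5 and 78.5 CPM against 141, 102.5, 99.3 and 113 CPM, lower in QZ1-hi without overlap, but its log2 fold change of -0.41 did not pass (SE 0.13, edgeR adjusted p = 0.0505).

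Among the kinases near the cytoplasmic tails, Fyn rose, at 39.8, 31.1, 44.6 and 38.1 CPM against 14.3, 18.1, 10.7 and 15.2 CPM (log2 fold change 1.40, SE 0.18, edgeR adjusted p = 0.00054), while Ptk2 (0.44) and Ptk2b (0.05) did not pass. Of 9 WAVE complex genes, through which delta2 protocadherins act on actin, Wasf3 and Abi2 were higher. Wasf3 was at 3.05, 5.48, 6.19 and 5.24 CPM against 0.0596, 1.02, 0.579 and 0 CPM (log2 fold change 3.59, SE 0.86, edgeR adjusted p = 0.0134). Abi2 differed less, at 19.3 ± 3.74 against 12.8 ± 1.01 CPM (SD, n = 4, log2 fold change 0.59, edgeR adjusted p = 0.0358). Nckap1, Cyfip1, Cyfip2, Wasf2, Abi1 and Brk1 had log2 fold changes of -0.73 to 0.25 and did not pass, and Wasf1 was not tested.

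Genes beside the clustered protocadherins on chromosome 18 were read for comparison. RefSeq named 11 genes inside or directly beside the clusters, 9 of them in the count table. Taf7 and Slc25a2, which lie between the beta and gamma genes, were at 18.7 ± 3.17 against 15.5 ± 1.92 CPM (log2 fold change 0.26, edgeR adjusted p = 0.355) and 0.780 ± 0.694 against 0.450 ± 0.509 CPM (log2 fold change 0.77, edgeR adjusted p = 0.709). Hars, Hars2, Zmat2, Diaph1 and Hdac3, which flank the locus, had log2 fold changes of -0.05 to 0.13 and did not pass. Gm37013 had 0 counts and Rell2 had 4, and neither was tested.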

How the data were processed

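RNA of the 8 libraries was prepared with a stranded total RNA kit and sequenced on a NextSeq500. The authors counted reads per gene with Rsubread and deposited raw counts for 27179 Entrez Gene IDs. The submitters' processing notes name the build mm10 and DESeq2. The aligner, annotation, strand setting and treatment of reads over several genes are not given in the sources used here. Symbols came from NCBI gene tables and matched 25275 IDs. Members, gene lists and marker lists were chosen with earlier results of these data known.

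Counts were tested on the whole table with edgeR 4.0.16 in R 4.3.3 (TMM, filterByExpr with a minimum count of 10 and a minimum total of 15, glmQLFit and glmQLFTest on 2 unpaired groups of 4, Benjamini-Hochberg, two-sided, threshold 0.05). SEs were derived from the log2 fold change and the F statistic. The common dispersion was 0.113. The study used DESeq2, which served as an alternative (1.42.0), as did limma-voom (3.58.1), other scalings and filters, and each library left out. Scripts were tested on simulated data. The labels call the libraries biological replicates but tie none to a mouse, so p-values measure the spread between these libraries. TMM factors were 0.660 to 1.35. For Pcdh11x a group at 0 was set to 3 counts over the group for a bound.

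All members were accounted for. Per-library values were given for the called members and for those on which a statement rests, and ranges for the others. Gene and promoter coordinates are from RefSeq (GRCm38.p6), exon lengths and overlaps from GENCODE M21. All 70 members matched RefSeq, and 1 alpha gene had no value for shared exons. Promoter windows of Pcdh7, Pcdh9 and Pcdh15 lie inside the annotated gene and are not shown. Part of the regulator and partner list is not reported here by name.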

Additional observations from a re-analysis of the deposited data

Results flagged for a closer look

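Within each population of 4, the library farthest from the others was compared with the spread of the group by Dixon's ratio. Of 34 sets of values 5 exceeded the critical value, where chance alone gives about 1 in 20. That rate assumes continuous values and does not hold for sets near 0 counts, such as Pcdhb16, Pcdhb19 and summed alpha in QZ1-lo. The number of flags is therefore not read against it. QZ1-lo library 4 had 0.0409 CPM of Pcdhb16, a single count, and the other QZ1-lo libraries had 0. QZ1-lo library 2 had 0.203 CPM of Pcdhb19, the others at most 0.0298 CPM. Pcdhb20 was at 2.20 CPM in QZ1-hi library 3 against 1.43 to 1.52 CPM, and Pcdhgb2 at 11.8 CPM in the same library against 7.33 to 7.57 CPM. The summed alpha level was 2.46 CPM in QZ1-lo library 3 against at most 0.244 CPM in the others.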

How the results depend on the processing

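Of the 13 members called higher, 3 passed the filter through QZ1-hi libraries alone and are left aside here. Of the other 10, 7 were called in each of the 17 alternatives that tested them, at the threshold of 0.05. The exceptions were Pcdhgb2 and Pcdhgb4 under library size scaling, and Pcdhgb2 and Pcdhb20 when 1 library was left out. The 10 include Pcdhb20, Pcdh18 and Pcdh19, whose direction the filter favoured, since only 1, 2 and 2 QZ1-lo libraries reached its level. Members called higher numbered 8 when at least 10 counts were required in every library, where 9.97% of all genes were called higher. That filter dropped the called beta genes, Pcdh18 and Pcdh19, while Pcdhgc5 was added. With 1 library left out, 11 to 17 members were called higher, beside 7.1% to 9.5% of all genes. Members called lower stayed at 0 in all alternatives. Alpha calls were 1 in limma-voom and 0 to 1 with a library left out. Beta calls were 2 at an adjusted p under 0.01, 0 with at least 10 counts in every library, 8 in DESeq2 with no filter (chosen after seeing the data), and 3 to 7 with a library left out, with 7 both without QZ1-hi library 4 and without QZ1-lo library 2. Gamma calls were 1 at an adjusted p under 0.01, 5 in DESeq2 and 1 under library size scaling. Of all genes, 8.81% were called higher in DESeq2 with no filter, 11.6% in DESeq2 and 5.66% under library size scaling. At an adjusted p under 0.01 no share of all genes was read. Genes of the regulator and partner list called higher were 5 in limma-voom, beside 10.9% of all genes. Those called lower were 2 in DESeq2, where 10.3% of all genes were lower, and 3 under library size scaling, where 16.1% were. They were 1 in limma-voom, with DESeq2 size factors, with at least 10 counts in every library and with robust shrinkage, beside 8.3% to 9.0% of all genes. The log2 ratio of summed levels was 1.81 for alpha but 1.39 to 4.86 with a library left out, highest without QZ1-lo library 3, and 0.97 for gamma but 0.54 under library size scaling. Pcdhgb6 turned to -0.16 under library size scaling and Pcdhga11 ranged from -0.20 to 0.027 with a library left out, being positive without QZ1-lo library 1. The cause of these shifts was not tested. No paired analysis was possible because the sources used here do not say which libraries of the 2 populations share a mouse. Most alpha and most beta genes had 3 counts or fewer in each QZ1-lo library, which limits what can be read from them. The part of sequencing depth in this was not tested.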

Other observations

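Other cell classes also differed between the populations. All 4 ciliated markers were lower in QZ1-hi, at a summed 33.2 to 112.9 CPM against 218.5 to 392.7 CPM, as were all 3 club cell markers, at 310.8 to 973 CPM against 1389 to 3998 CPM. Of 8 epithelial markers 5 were lower and 1, Sftpc, higher. The summed epithelial levels overlapped, at 5107 to 9436 CPM in QZ1-hi against 4385 to 6706 CPM in QZ1-lo. Sftpc held much of that sum, at 4064 ± 1124 against 2371 ± 443 CPM (SD, n = 4). Of 5 smooth muscle markers 2 were higher and 1 lower. For neuroendocrine cells 2 of 4 markers were tested and 0 called, with summed levels of 0.939 to 3.10 CPM against 2.87 to 7.08 CPM. Of 5 immune markers 0 were called (edgeR), with summed levels of 210.7 to 452.7 CPM in QZ1-hi and 195.5 to 350.3 CPM in QZ1-lo, and 0 were higher at an unadjusted p under 0.05.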
